A study of Arabidopsis thaliana with 8 samples.

Results

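Chloroplasts carry ribosomes of the bacterial type, built from a small (30S-like) and a large (50S-like) subunit. They translate the mRNAs of the plastid genome, which encode core subunits of the photosystems and the large subunit of Rubisco. Part of the ribosomal proteins is encoded in the plastid itself. The others are encoded in the nucleus, made in the cytosol and imported, so that their mRNAs can be measured among the nuclear transcripts. The 5 genes described here are of this second kind, and they were taken as the probes whose platform annotation names exactly 1 gene, that gene being 1 of the 5. RPS6 (AT1G64510) and RPS10 (AT3G13120) belong to the small subunit, and RPL34 (AT1G29070), RPL17 (AT3G54210) and RPL5 (AT4G01310) to the large one. They are 5 of the 691 genes with a single-gene probe, on arrays of 3439 probes, and each has 1 such probe. The gene table lists 2 transcripts for RPS6, 3 for RPS10 and 1 for each of the other genes. The array gives 1 value per gene, and which of the transcripts a probe detects is not known.

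Total RNA of Arabidopsis thaliana, the wild type of ecotype Columbia 0, was measured on 8 arrays. Of these, 4 held RNA of plants kept for the last 1 d at high CO2 (1% of the air by volume), and 4 came from plants at normal CO2, labelled 0 d. No group stayed at normal CO2 for the further day, so CO2, the additional day and the move cannot be told apart. The labels name no tissue, age or array type, and do not say whether arrays within a group represent different plants. The p-values thus cover only array-to-array spread, part or all of which may be technical.

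Relative intensities were deposited on a linear scale, with a highest value over all arrays of 100. Array medians were 0.212 to 0.28, and 133 to 219 probes per array were listed at 0. Replicates 1 and 2 of a group, and replicates 3 and 4, were more alike (correlation 0.9 to 0.972 across probes) than same-group arrays of different sets (0.863 to 0.907). What these sets are is not labelled, so results are given for each set as well. Each set holds 2 arrays of each group. All 5 genes were above 0 on all 8 arrays and all 5 entered the test, for which the intensities were put on the log2 scale and quantile normalized.

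The question was whether the transcripts of the plastid ribosome differ after the day at high CO2, and whether small and large subunit genes differ alike. Levels of RPS6, RPL34 and RPS10 were lower on the high CO2 arrays, with log2 fold changes of -1.57, -1.22 and -0.62, while RPL17 and RPL5 did not pass the test. Both small subunit genes and 1 of the 3 large subunit genes were thus lower at an adjusted p under 0.05 (limma, Benjamini-Hochberg over 3154 probes). This count of 3 takes all arrays as independent. It was 1 with the pairs of like arrays as a random block, where 6.56% of all probes were lower, and 0 with each pair averaged. The background was high, since 18.3% of all tested probes were lower by the same rule and 32.6% changed in either direction. Among all probes 577 were lower and 452 higher after normalization, against 387 lower and 499 higher with the values as deposited. In the deposited values, 3 of the 5 genes had every high CO2 array below every normal array, as did 16.6% of all tested probes. The median log2 fold change of the 5 genes was -0.62, and that of all tested probes was -0.16. In whole-plant or tissue RNA, fewer cells of a type and less RNA per cell cannot be told apart.

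**Figure D1:**
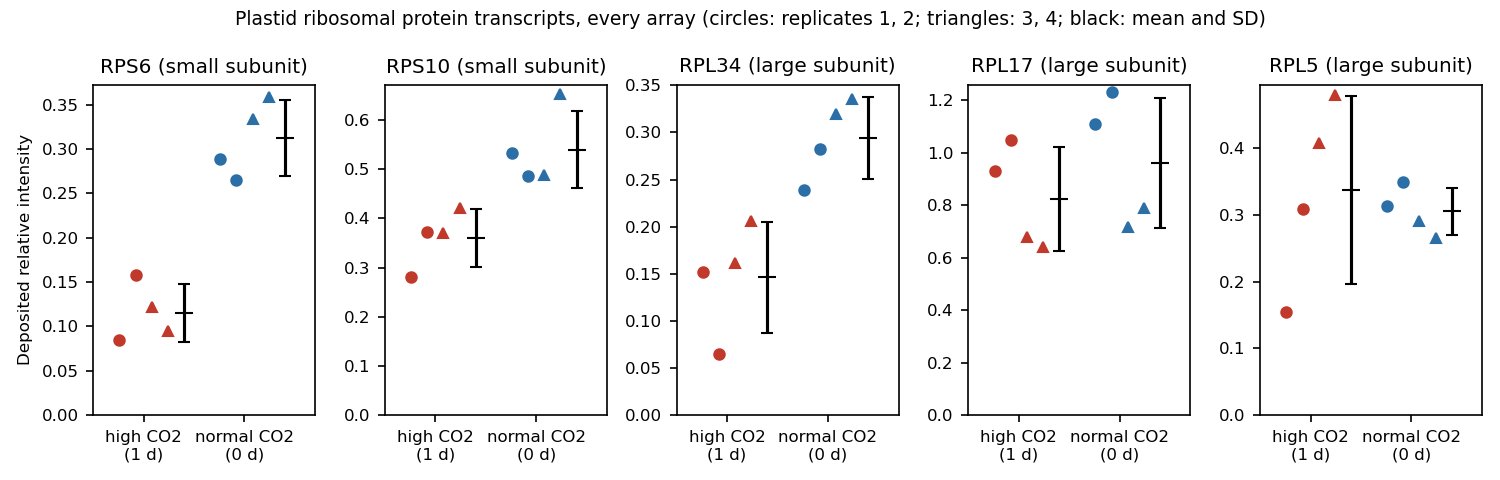
Deposited relative intensity (linear axis from 0) of each gene on every array, with high CO2 (1 d) left of normal CO2 (0 d); circles are replicates 1 and 2, triangles are replicates 3 and 4, and black marks give the mean and SD of 4 arrays. The groups are apart for RPS6, RPS10 and RPL34 and overlap for RPL17 and RPL5.

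RPS6 is the plastid counterpart of bacterial S6, a protein of the small subunit. Its relative intensity was 0.0842, 0.158, 0.122 and 0.0951 on high CO2 arrays 1 to 4, against 0.289, 0.265, 0.334 and 0.359 on normal CO2 arrays 1 to 4. Every high CO2 array lay below every normal array, with a wide gap between the groups. The means were 0.115 ± 0.0327 at high CO2 and 0.312 ± 0.0428 at normal CO2 (SD, n = 4 each), so the high CO2 mean was 36.8% of the normal one. On the log2 scale high CO2 over normal CO2 was -1.57 ± 0.27 (SE), with a 95% interval of -2.2 to -0.94 and an adjusted p of 0.00444 by limma. Only 3.33% of all tested probes had a lower fold change. The size depends on how low values are treated, as the lowest high CO2 value, 0.0842, is not far above percentile 10 of all values above 0 (0.0549). With 0.0549 added to every value as a pseudocount, the RPS6 log2 fold change was -1.15 (adjusted p = 0.00437 by limma). RPS6 was also the 1 member that passed when the pairs of like arrays were a random block, with an adjusted p of 0.0372 by limma, where 6.56% of all probes were lower.

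The RPS6 log2 fold change was -1.07 in replicates 1 and 2 and -2.08 in replicates 3 and 4. Both sets put the gene lower, and the difference between them, -1.01 ± 0.43 (SE), did not pass the limma interaction test (adjusted p = 0.189). Replicate 2 had the highest RPS6 value of the high CO2 group, and without it the log2 fold change was -1.81.

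RPS10 is the counterpart of bacterial S10, which lies in the head of the small subunit. Its relative intensity was 0.281, 0.372, 0.371 and 0.422 at high CO2, against 0.534, 0.486, 0.488 and 0.654 at normal CO2, in the order of the replicates. The groups did not overlap, but the gap between the highest high CO2 array and the lowest normal array was small. The means were 0.361 ± 0.0588 at high CO2 and 0.54 ± 0.0789 at normal CO2 (SD, n = 4 each). The log2 fold change of -0.62 ± 0.18 (SE, 95% interval -1.04 to -0.21) passed narrowly, with an adjusted p of 0.0317 by limma. It lay within the bulk of the array, since 27% of all probes had a lower value. By set it was -0.41 in replicates 1 and 2 and -0.84 in replicates 3 and 4. With the pairs of arrays as a block the call was lost (limma, adjusted p = 0.16), as it was without any of high CO2 replicates 1, 3 and 4 or normal replicates 1, 3 and 4 (0.0525 to 0.0676). It was also lost with the replicate number as a block (0.0656).

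RPL34, a protein of the large subunit, had relative intensities of 0.152, 0.0643, 0.161 and 0.206 at high CO2, against 0.239, 0.282, 0.32 and 0.335 at normal CO2. All high CO2 arrays were again below all normal ones, and replicate 2, the highest for RPS6 at high CO2, was the lowest for RPL34. The high CO2 arrays spread 3.21-fold between lowest and highest, and the normal arrays 1.4-fold. Means were 0.146 ± 0.0593 at high CO2 and 0.294 ± 0.0432 at normal CO2 (SD, n = 4 each), the first being 49.6% of the second. This gave a log2 fold change of -1.22 ± 0.31 (SE), a 95% interval of -1.95 to -0.5 and an adjusted p of 0.0203 by limma, and 7.48% of all probes were lower than that. The value of replicate 2 at high CO2, 0.0643, is close to percentile 10 of all values above 0 (0.0549). With 0.0549 added to every value as a pseudocount, the RPL34 log2 fold change was -0.9 (adjusted p = 0.0172 by limma).

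Of the 5 genes, RPL34 had the closest values in the array sets, -1.2 in replicates 1 and 2 and -1.25 in replicates 3 and 4. This closeness is imprecise, as the difference, -0.05 ± 0.57 (SE), had the largest SE of the 5 genes. In replicates 1 and 2, RPL34 was far apart on the high CO2 arrays, at -2.601 and -3.811 on the normalized log2 scale. Without high CO2 replicate 2 its log2 fold change was -0.94 with an adjusted p of 0.0196 by limma. The call was lost without normal replicate 4 (adjusted p = 0.0511 by limma) and with the pairs as a random block (0.136).

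RPL17 is the counterpart of bacterial L17, which in Escherichia coli lies near the exit of the peptide tunnel. Its relative intensity was 0.931, 1.05, 0.677 and 0.642 at high CO2, against 1.11, 1.23, 0.715 and 0.79 at normal CO2. The groups overlapped, because replicates 1 and 2 were high and replicates 3 and 4 low in both groups. Within each set, both high CO2 arrays were below both normal arrays in the deposited values. The set means were 0.991 at high CO2 and 1.17 at normal CO2 for replicates 1 and 2, and 0.66 at high CO2 and 0.752 at normal CO2 for replicates 3 and 4. The log2 fold change over all arrays was -0.3 ± 0.28 (SE, 95% interval -0.94 to 0.33, adjusted p = 0.421 by limma). With the array set as a term the SE was 0.13 and the adjusted p 0.108, so the gene still did not pass. The difference between the sets, -0.68 ± 0.13 log2 units (SE) for replicates 3 and 4 minus 1 and 2, was larger than its CO2 difference but missed the threshold (adjusted p = 0.061 by limma, with 1.71% of all probes called).

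RPL5 is the counterpart of bacterial L5, which binds the 5S ribosomal RNA. Its relative intensity was 0.154, 0.309, 0.407 and 0.479 at high CO2, against 0.313, 0.349, 0.291 and 0.265 at normal CO2. The groups overlapped. In the deposited values high CO2 replicate 1 was below the normal arrays of its own set, and replicate 2 just below them (0.309 against 0.313). On the normalized log2 scale used for the test, high CO2 replicate 2 (-1.524) was above normal replicates 1 and 2 (-1.743 and -1.591). Only high CO2 replicate 1 (-2.59) was below them there. High CO2 replicates 3 and 4 were above all normal arrays. The 4 high CO2 arrays spread 3.11-fold, against 1.31-fold for the normal arrays. Means were 0.337 ± 0.141 at high CO2 and 0.305 ± 0.0354 at normal CO2 (SD, n = 4 each). RPL5 had a log2 fold change of -0.04 ± 0.28 (SE), with an adjusted p of 0.931 by limma, and its 95% interval, -0.68 to 0.61, allows a change of either sign.

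By set, the RPL5 log2 fold change was -0.39 in replicates 1 and 2 and 0.32 in replicates 3 and 4. This difference of 0.71 ± 0.49 (SE) did not pass the interaction test (adjusted p = 0.388 by limma). Over the 5 genes 0 differed between sets by this limma test after adjustment, against 10.4% of all probes, and 0 at an unadjusted p under 0.05, against 30.2% of all probes. Without high CO2 replicate 1, the lowest array, the RPL5 value was 0.25 (adjusted p = 0.222 by limma). The negative value in replicates 1 and 2 came from that array, as replicate 2 was not lower after normalization.

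**Figure D2:**
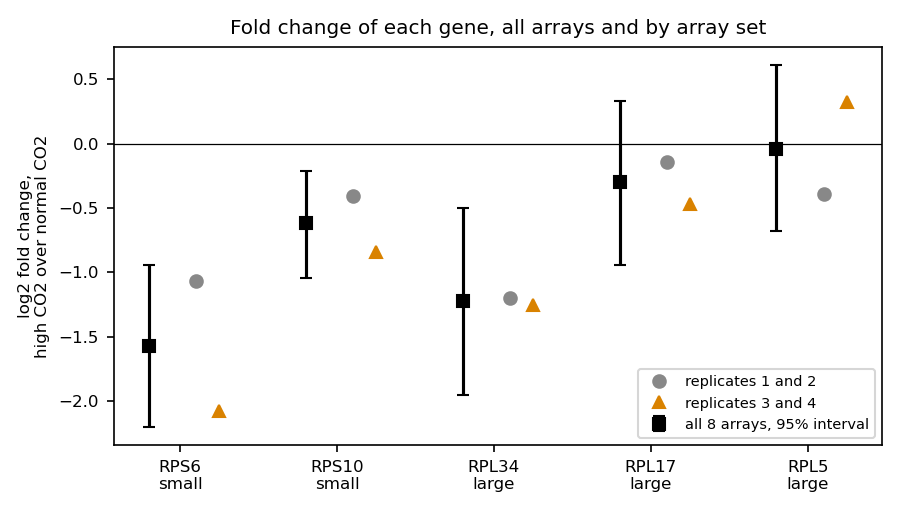
Log2 fold change of each gene, high CO2 over normal CO2, from all 8 arrays (black squares, with the 95% interval of the limma fit) and from the means of each array set (grey circles for replicates 1 and 2, orange triangles for replicates 3 and 4). Of the 5 genes, RPL5 is the one whose sets lie on opposite sides of 0, at -0.39 and 0.32. The first value is carried by high CO2 replicate 1.

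In the analysis of each set alone, 0 of the 5 genes passed in replicates 1 and 2, where 14.9% of all probes were lower. At an unadjusted p under 0.05, RPS6 alone was lower there, against 26.3% of all probes. In replicates 3 and 4 alone 2 passed, RPS6 and RPL34, against 14.2% of all probes. Without adjustment 4 of the 5, all but RPL5, were lower there at a p under 0.05 by limma, against 23.9% of all probes. RPS10 was at -0.83 there (adjusted p = 0.0591 by limma) and RPL17 at -0.48 (0.0746). With the 2 arrays of each pair averaged, 0 of the 5 genes passed by limma, as did 0 of all probes, and 2 of the 5 were lower at an unadjusted p under 0.05, against 13.1% of all probes.

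Averaged by subunit, the small subunit genes were lower at high CO2 by more than the large subunit genes. The mean log2 fold change was -1.1 over the 2 small subunit genes and -0.52 over the 3 large subunit genes, a difference of -0.58. The small subunit mean on the normalized log2 scale was -2.55, -1.89, -2.48 and -2.55 on high CO2 arrays 1 to 4, against -1.43, -1.54, -1.18 and -0.93 on normal arrays 1 to 4. The large subunit mean was -1.73, -1.73, -1.73 and -1.54 on high CO2 arrays, against -1.25, -1.06, -1.17 and -1.16 on normal arrays. Each subunit's mean was thus lower on every high CO2 array than on any normal array. For the small subunit this adds nothing, since the groups of RPS6 and of RPS10 were each already apart. For the large subunit this separation rested on RPL34. The mean of RPL17 and RPL5, neither of which passed the test, was -1.3, -0.69, -1.12 and -1.05 on high CO2 arrays, against -0.81, -0.65, -1 and -1.02 on normal arrays, and these groups overlapped.

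The small minus large difference itself was -0.82, -0.16, -0.75 and -1.01 on high CO2 arrays, against -0.18, -0.47, -0.01 and 0.23 on normal arrays. Here the groups overlapped: high CO2 replicate 2 lay among the normal arrays. Its mean was -0.69 ± 0.37 at high CO2 and -0.11 ± 0.3 at normal CO2 (SD, n = 4 each). The difference between subunits was -0.16 in replicates 1 and 2 alone and -0.98 in replicates 3 and 4 alone. It also rested on single genes, being -0.1 without RPS6, -1.05 without RPS10, -0.93 without RPL34, -0.47 without RPL17 and -0.33 without RPL5. With RPS10 as the only small subunit gene, the 2 subunits were therefore almost alike. No p-value is given for it, because the 5 genes were chosen with earlier results of these data known.

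**Figure D3:**
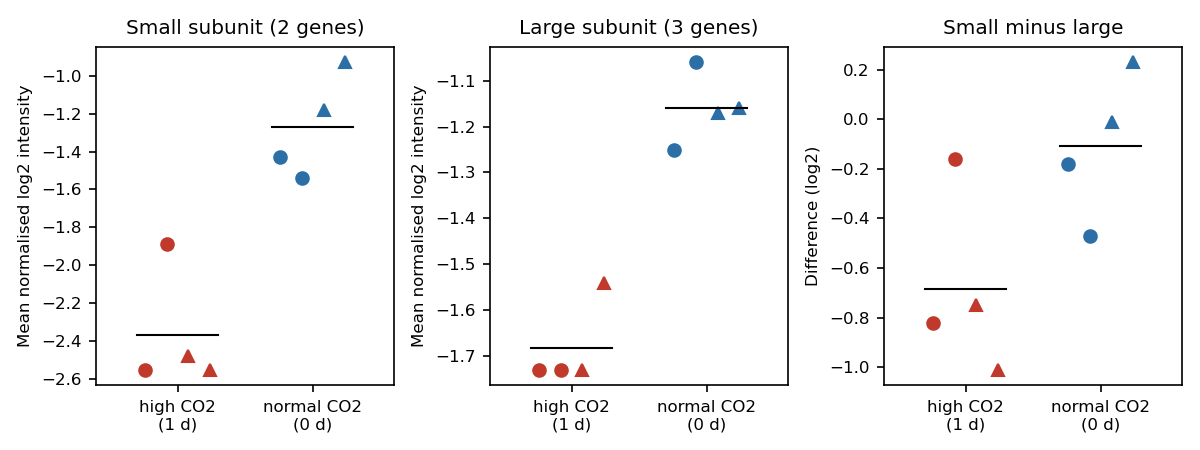
Mean normalized log2 intensity over the 2 small subunit genes, over the 3 large subunit genes, and their difference, on each array; high CO2 is left of normal CO2, circles are replicates 1 and 2, triangles are replicates 3 and 4, and lines are group means. The subunit means do not overlap between groups, which follows from RPS6 and RPS10 for the small subunit and rests on RPL34 for the large one. In the difference, high CO2 replicate 2, at -0.16, lies among the normal arrays.

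The patterns of the 5 genes over the arrays differed from each other. They were compared by the root mean square (RMS) difference of normalized log2 intensities over the 8 arrays, with each gene centred on its own mean. The genes were not scaled, so a low value means a like pattern or little variation in both genes. The smallest RMS difference between members was 0.46, for RPS10 and RPL17, followed by RPS10 and RPL5 at 0.48. By rank RPS10 and RPL17 were not close, as RPL17 came at rank 197 for RPS10 and RPS10 at rank 148 for RPL17. The largest was that of RPS6 and RPL5, at 0.91. Among the 571 other single-gene probes with values on all arrays, the member closest to RPS6 was RPS10, at rank 42, and the member closest to RPL34 was also RPS10, at rank 82. For RPL5, RPS10 came at rank 118 and RPL17 at rank 288. Many other genes on the array therefore had patterns nearer to each member than any other member had.

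The genes most like each member were named by the same measure, which uses values that also give the fold change and so is a description. For RPS6 they were AT1G79220 (RMS difference 0.24, log2 fold change -1.4) and GH9B11 (0.32, log2 fold change -1.36). RPS10 was followed most closely by AT2G30320 (0.14, log2 fold change -0.77) and GLDH (0.17, log2 fold change -0.55). The closest to RPL34 were AT4G20820 (0.27, log2 fold change -0.99) and DRT101 (0.31, log2 fold change -0.9). AT5G42070 (0.15) and AT3G46950 (0.17) were closest to RPL17, and AT5G62360 (0.18) and AT3G02690 (0.19) to RPL5.

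Set against all probes, the genes spread over the lower part and the middle of the distribution. Relative to the median of all probes, the log2 fold changes were -1.41 for RPS6, -1.07 for RPL34, -0.46 for RPS10, -0.14 for RPL17 and 0.12 for RPL5. The median log2 fold change of the 60 tested probes nearest in probe number was also taken around each gene. It was 0.19 around RPS6, 0.03 around RPS10, -0.26 around RPL34, -0.27 around RPL17 and -0.28 around RPL5. With the running median along the probe numbers removed from each array, the log2 fold change was -1.85 for RPS6, -0.64 for RPS10 and -1.15 for RPL34. All of these still passed, where 12.7% of all probes were lower. For RPL17 the log2 fold change was then -0.05 and for RPL5 0.19, so the value of RPL17 was close to that of its neighbours. What part the position of a probe has in these values was not tested.

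**Figure D4:**
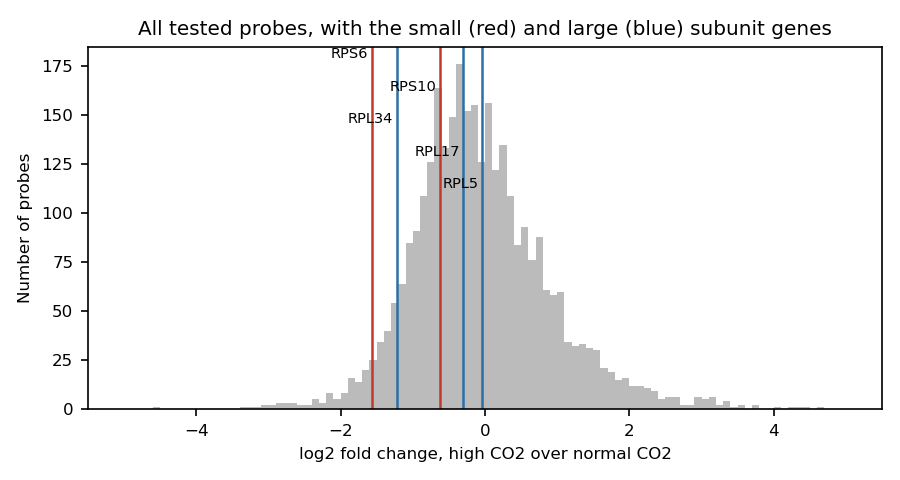
Distribution of the log2 fold change, high CO2 over normal CO2, of all 3154 tested probes (grey, number of probes per 0.1 log2 units), with the small subunit genes as red lines and the large subunit genes as blue lines. RPS6 (-1.57) and RPL34 (-1.22) lie in the lower tail, with 3.33% and 7.48% of probes below them, and the other genes lie in the bulk.

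Other listed genes of plastid translation were hardly covered. Of 36 further nuclear genes for plastid ribosomal proteins on the lists, 12 of the small and 24 of the large subunit, 1 had a single-gene probe. That gene, AT5G65220 of the large subunit list, was listed at 0 on all 8 arrays and could not be tested. Of 11 plastid translation factors and 19 genes of plastid transcription 0 had a single-gene probe. Of 13 genes for ribosome assembly and RNA maturation in plastids 1 had one, AT5G46420. It was listed at 0 on 3 of the 4 high CO2 arrays and 1 of the 4 normal arrays and was not tested. A search of the gene table's names and synonyms for tRNA synthetases, other ribosomal proteins, translation factors and ribosome assembly found 0 further genes with a single-gene probe. The gene table holds no product descriptions, and many genes are named there only by their locus. This search could therefore miss such genes and does not show that they are absent from the array. The values of the 5 genes therefore stand for 5 of the 41 listed plastid ribosomal protein genes, and do not describe the ribosome as a whole.

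**Figure D5:**
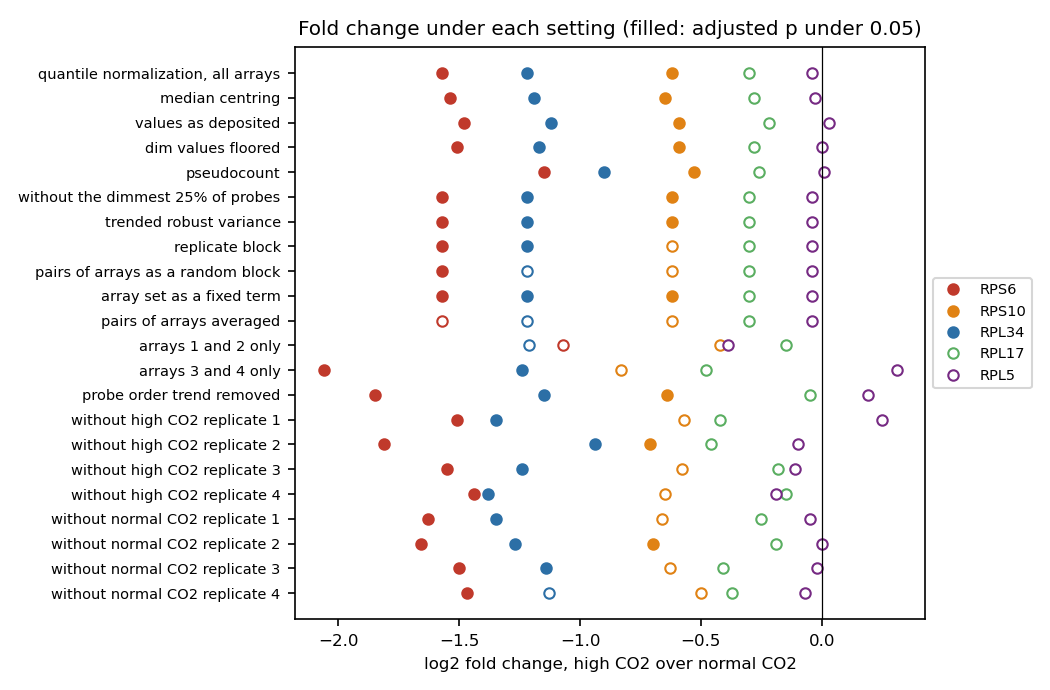
Log2 fold change of each gene, high CO2 over normal CO2, under the reported setting (top) and 21 alternatives, with filled points where the adjusted p was under 0.05. RPS6 is filled in 19 of the 21 alternatives, RPL34 in 17, RPS10 in 10, and RPL17 and RPL5 in 0.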

How the data were processed

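The authors deposited relative intensities for 8 arrays (4 high CO2, 4 normal CO2), whose background treatment, normalization and scaling no label or header states. Groups and replicate numbers were taken from the sample titles. The platform annotation, matched through gene identifiers to TAIR10.1, named 1 gene for 692 of 3439 probes (690 matched). Values of 0 were treated as missing, and the rest were log2-transformed and quantile normalized, a step applied where array medians differ by over 10%. Probes with at least 3 values per group (3154) were then kept for the test. The comparison of groups used limma 3.58.1 under R 4.3.3 (lmFit and eBayes). Its tests are two-sided, p-values were adjusted over all tested probes (Benjamini-Hochberg), and the threshold was 0.05. Zeros and missing values did not occur for the 5 genes. The number of arrays limits the precision. Each gene's 2 nearest patterns are named, and of the lists up to 4 genes with the lowest p. The 5 genes, the lists, the array sets and the alternatives were chosen with earlier results of these data known. Alternatives were the deposited scale or median centring in place of quantile normalization, a pseudocount of 0.0549 or a floor (percentile 5 of each array), a trended robust variance, and a filter on the dimmest 25% of probes. Blocks for replicate number, array pair or array set, averaged pairs, each set alone, removal of a running median over 61 probes, and leaving out each array were also run. The script was tested on simulated data with independent noise on each array, which does not cover the likeness within array pairs. Replicate numbers were not taken as pairs, since the correlations between deviations of same-numbered arrays, 0.0639 to 0.129, were not all over 0.1. Python 3.11.15 with matplotlib 3.10.9 drew the figures.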

Additional observations from a re-analysis of the deposited data

How the results depend on the processing

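Over 21 alternatives RPS6, RPS10, RPL34 and RPL17 stayed below 0 in all 21. RPS6 passed in 19, RPL34 in 17, RPS10 in 10, and RPL17 and RPL5 in 0. For RPS6, RPS10 and RPL34, whose groups do not overlap, dropping or averaging arrays could hardly change the sign. Their calls were not fixed in this way. With the pairs averaged the adjusted p was 0.13 for RPS6, 0.256 for RPS10 and 0.161 for RPL34 by limma. RPL5 turned positive with the values as deposited (0.03), with a pseudocount of 0.0549 (0.01), in arrays 3 and 4 only (0.31), with the probe order trend removed (0.19) and without high CO2 replicate 1 (0.25); leaving out each array gave -0.19 to 0.25. The number of genes called lower, 3 of 5, was 1 with the pairs of arrays as a random block, 0 with the pairs averaged and 0 in arrays 1 and 2 only, and between 1 and 3 when each array was left out (1 without normal replicate 4). Among all probes, 6.56% (207) were called lower with the random block, 0 with averaged pairs and 14.9% in arrays 1 and 2 only, against 18.3% (577). With averaged pairs 775 probes had an unadjusted p under 0.05 by limma, in either direction. When each array was left out, the share called lower was between 12.2% (377, without normal replicate 1) and 17%. It was 14.3% without normal replicate 4. Fewer values and the correlation allowed between arrays bear on these counts by construction. The small minus large difference of -0.58 was -0.16 in arrays 1 and 2 only and -0.98 in arrays 3 and 4 only. With the probe order trend removed it was -0.91, and with the pseudocount -0.46. It was -0.1, -1.05, -0.93, -0.47 and -0.33 without RPS6, RPS10, RPL34, RPL17 and RPL5, an alternative chosen after seeing the data, and -0.75 to -0.46 when each array was left out. The cause of these differences was not tested. With the replicate number as a block 2 genes passed, RPS6 and RPL34, and RPS10 did not (log2 fold change -0.62, adjusted p = 0.0656 by limma), while 14% of all probes were lower; this block changed no other call among the 5. The median of all probes was -0.16, and -0.03 without the probe order trend.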
